A study of Drosophila melanogaster with 3 samples.

Results

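The genes described here make and control the dosage compensation machinery of the fruit fly Drosophila melanogaster, and what was measured is where the protein CG14710 lay at each of them. The 9 genes, of 17796 on the chromosome arms in the RefSeq annotation of the dm6 assembly, were chosen by name: msl-1, msl-2, msl-3, mle, mof, Clamp, Sxl and the non-coding RNA genes lncRNA:roX1 and lncRNA:roX2 (roX1 and roX2 below). For each, every peak summit within 500 bp of a transcription start site (TSS), called a promoter peak, and every summit elsewhere in the gene was taken. Chromatin immunoprecipitation followed by sequencing (ChIP-seq) was done with an antibody against green fluorescent protein (GFP), on whole embryos aged 0 to 14 hours from a transgenic line whose CG14710 carries GFP at its C-terminus. All 3 biological replicates belonged to this 1 group, and no sample of another genotype, tag or stage was analysed here. The embryos were not grouped by sex here, so male and female chromatin cannot be told apart. What drives the tagged gene, and whether untagged protein was also present, is not stated in the labels. Each replicate gave a list of 30000 peaks, the authors' pooled list held 30000, and 9194 of those, the ones with the highest signal, made up the authors' list filtered on the irreproducible discovery rate (IDR). Read depth is unknown, and a site missing from a list was not among its 30000 peaks, which does not show that it was unbound. At the CG14710 gene itself the pooled promoter peak had a signal of 1804 and ranked 627, with its summit at -77 bp from the TSS.

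Flies equalise X-linked expression between the sexes by raising transcription of the single male X. The male-specific lethal (MSL) complex does this: MSL-1 and MSL-2 form its core, MSL-3 and the acetyltransferase MOF act on chromatin, the helicase MLE loads the roX RNAs, and the zinc finger protein CLAMP binds GA-rich sequence and helps to recruit the complex. In females the RNA-binding protein Sex-lethal (SXL) blocks the synthesis of MSL-2, so the complex does not form. These roles are background and were not measured here.

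Peaks lay at the promoters of nearly all of these genes. Of the 9 genes, 8 had a promoter peak in the IDR list (88.9%, 95% Wilson interval 56.5% to 98%), and msl-3 was the exception. The same was true of 6 of the 7 protein-coding genes, where the background over all 13944 protein-coding genes was 42.6%, and of both roX genes, where the background over 1987 long non-coding RNA genes was 12.2%. Over all genes the background was 36%. The 9 genes were chosen with earlier results of these data known. The interval therefore covers counting error only and is no test against these shares. The same 8 genes had a promoter peak in all 3 replicate lists, as did 47.7% of protein-coding genes, while msl-3 had one in replicates 2 and 3 only. The count was lower when a strong peak was required: msl-2, Clamp and Sxl, 3 of the 7 coding genes (42.9%), had a promoter peak in the 50% of IDR peaks with the higher signal, against 29% of all protein-coding genes. It was also lower when an IDR peak had to be among the 9194 strongest peaks of both replicates that remain after 1 is left out. Then 5 genes kept their peak without replicate 1 (mle, mof and roX1 were lost), 5 without replicate 2 (msl-1, mof and roX1 were lost) and 6 without replicate 3 (msl-1 and mle were lost). The shares of all protein-coding genes under the same rule were 36.5%, 36% and 38.4%.

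The promoters of 5 of the 9 genes hold a sequence that the choice of genes did not use. Of the 13 motifs searched, which were picked with earlier results of these data known, it was singled out after the counts were seen. The core of the DNA replication-related element (DRE), ATCGAT, also occurred at 5 of the 9, against 26.3% of all protein-coding genes. The motif of the protein Zelda, CAGGTAG, occurred at 2 of the 9, against 2.3%, so motif 1 is not the only one above its share. The sequence singled out is core promoter motif 1, a 9-base element of Drosophila housekeeping promoters that the zinc finger protein M1BP binds. The letters GGTCACACT were searched on both strands from 250 bases before to 50 after each TSS. They occurred at msl-2, msl-3, Clamp, Sxl and roX2, against 6.78% of all protein-coding genes and 12 of 1987 long non-coding RNA genes (0.604%). Each match is shown with its flanks, 29 bases in all, on the strand on which it reads GGTCACACT, with the motif in capitals.
msl-2, chr2L:3466069-3466097, same strand as the gene, 25 bp downstream of the TSS: ggcacactgcGGTCACACTggcttcgctc
msl-3, chr3L:7125615-7125643, same strand as the gene, -100 bp: cattttgtctGGTCACACTtaaggccggc
Clamp, chr2L:22169159-22169187, same strand as the gene, -34 bp: gtcgtgaaacGGTCACACTtttaaaaagt
Sxl, chrX:7098134-7098162, strand opposite to the gene, -99 bp: gcactcggctGGTCACACTgttcattttc
roX2, chrX:11579066-11579094, same strand as the gene, 11 bp downstream of the TSS: ttcgcggcctGGTCACACTaagctagggc
The motif lay 27 bp from the nearest IDR summit at Sxl, 42 bp at roX2, 52 bp at msl-2 and 112 bp at Clamp. At msl-3 the nearest IDR summit was 8572 bp from it. Of the 945 protein-coding genes with the motif in this window, 848 (89.7%) had an IDR promoter peak, so msl-3 is among the 97 that did not. The motif was present at 14.3% of protein-coding genes with an IDR promoter peak and at 1.21% of those without. A match is a description of the letters and not evidence of which protein sits there.

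The core scaffold gene msl-1 (2L, 18683720 to 18688800, minus strand) had a low-ranked promoter peak. Its pooled signal was 327 (rank 7704), with the summit at -63 bp. The signals in replicates 1, 2 and 3 were 87.7, 86.5 and 142, which are percentiles 64.7, 73.9 and 76.5 of their lists, a mean of 71.7 ± 6.21 (SD, n = 3). A percentile here is the share of the list's peaks with the same or a lower signal, and it is used because the scale of the signal is not stated. Replicate 1 was the lowest of the 3 for this gene, and its summit lay 60 bp downstream of the TSS, where those of replicates 2 and 3 lay at -63 and -92 bp. None of the 13 motifs searched occurred in the msl-1 promoter window, from 250 bp before to 50 bp after the TSS.

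The gene msl-2 (2L, 3462218 to 3466112, minus strand), which encodes the male-specific ubiquitin ligase subunit that SXL represses in females, had the highest-ranked peak of the 9 genes. The pooled signal was 1094 (rank 1624), and the summit lay at -27 bp. In the 3 replicates the signal was 354, 375 and 335, at percentiles 93.5, 97.2 and 91.1, with a mean of 93.9 ± 3.07 (SD, n = 3). All 3 replicate summits lay within 24 bp upstream of the TSS. The peak cannot be assigned to msl-2 alone: ND-PDSW, which encodes a subunit of mitochondrial complex I, starts 45 bp away on the other strand, and its TSS was 18 bp from the summit. The bases between the starts hold the summit and are shown on the msl-2 strand, with an E-box of the form CAGCTG in capitals.
msl-2 to ND-PDSW, chr2L:3466113-3466156, minus strand: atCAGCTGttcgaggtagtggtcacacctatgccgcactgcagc
CAGCTG lay within 50 bp of 4.61% of IDR summits. A further msl-2 summit in the IDR list, at -232 bp, had a pooled signal of 276 (rank 8841) and a mean percentile of 70.8 ± 11.2 (SD, n = 3). It lay inside the transcribed region of ND-PDSW.

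For msl-3 (3L, 7123213 to 7125533, minus strand), whose chromodomain protein helps the complex to spread along active genes, the lists disagree. No summit lay within 500 bp of its TSS in the IDR list, the pooled list or replicate 1, and the nearest pooled summit was 6025 bp away. Replicate 2 had a peak there with a signal of 135.4 (rank 4919, percentile 83.6) and its summit 26 bp downstream of the TSS. Replicate 3 had one of 135.5 (rank 7342, percentile 75.5) with its summit at -35 bp. Both ranked among the 9194 strongest peaks of their lists, above the percentiles of msl-1, mle, mof and roX1 in replicate 2, and above those of mof, mle, roX1 and roX2 in replicate 3. Of 5935 protein-coding genes with a summit among the 9194 strongest peaks of at least 2 replicates, 63 (1.06%) had no pooled promoter summit. The 5935 include genes with such a summit in all 3 replicates. The share among genes that, like msl-3, had none in 1 replicate was not computed and may be higher. The cause of the mismatch was not tested. BBS1, a cilium gene, starts 372 bp from msl-3 on the other strand. The upstream bases hold the replicate 3 summit and, in capitals, a full DRE, the letters TATCGATA known to be bound by DREF, which 10.2% of all protein-coding genes hold in this window.
msl-3, chr3L:7125534-7125618, minus strand: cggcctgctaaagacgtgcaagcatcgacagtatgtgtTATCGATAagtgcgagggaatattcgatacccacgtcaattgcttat
No other gene of the 9 had this element in its promoter window.

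The helicase gene mle (2R, 5974857 to 5980778, minus strand) had a peak at the upstream of its 2 start sites. Pooled signal was 314 (rank 7979), with the summit at -76 bp. Replicate signals of 112, 71.6 and 131 put it at percentiles 71.3, 69.2 and 74.7, a mean of 71.8 ± 2.75 (SD, n = 3). Of the 8 leading promoter peaks this was the least spread over the replicates. Its other start had no summit within 500 bp in any list, the nearest IDR summit being 753 bp away.

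The acetyltransferase gene mof (X, 5873840 to 5876853, minus strand) had the lowest-ranked peak, with a pooled signal of 274 (rank 8895) and the summit 42 bp downstream of the TSS, in a non-coding part of its exon. In the replicates it had signals of 105, 96.9 and 75.5, at percentiles 69.8, 76.6 and 61.8, a mean of 69.4 ± 7.40 (SD, n = 3). In replicate 3 it ranked 11466 and so was not among the 9194 strongest peaks.

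Both roX genes, whose RNAs are part of the complex and which are themselves sites where it loads onto the X, had promoter peaks. At roX2 (X, 11579065 to 11580432, plus strand) the pooled signal was 475 (rank 5398), with the summit at -31 bp. In the replicates its signal was 204.8, 138 and 127, at percentiles 85.1, 84 and 74, with a mean of 81 ± 6.09 (SD, n = 3). Replicate 3 was lower than the other two. The bases around the summit are shown because they hold 2 of the core promoter elements searched, in capitals: motif 6 (GGTATTTT) and then motif 1.
roX2, chrX:11578984-11579084, plus strand: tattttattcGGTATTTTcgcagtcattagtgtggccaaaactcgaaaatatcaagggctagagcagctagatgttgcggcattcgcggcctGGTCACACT
Motif 6 lay within 50 bp of 2.57% of IDR summits and motif 1 within 50 bp of 2.55%.

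At roX1 (X, 3857230 to 3862697, minus strand) the peak was lower. Pooled signal was 299 (rank 8307) and the summit lay 39 bp downstream of the most upstream TSS, in an exon of the RNA. Replicate signals of 121, 78.8 and 91.5 stood at percentiles 73.4, 71.7 and 66.5, a mean of 70.5 ± 3.59 (SD, n = 3). The summits in replicates 1 and 2 lay 41 and 46 bp downstream of that TSS, while that in replicate 3 lay 93 bp upstream of another roX1 start. A weaker replicate 3 peak, with its summit at -32 bp from the most upstream TSS, had a signal of 69.1 (percentile 59.4). The percentile of roX2 was above that of roX1 in every replicate, and the ranges did not overlap, the lowest value of roX2 being 74 and the highest of roX1 73.4. In the roX1 gene body the pooled list had 2 summits, neither of which passed the IDR filter. The stronger, 795 bp from the nearest TSS, had a signal of 102.6 (rank 17803).

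Clamp (2L, 22165720 to 22169143, minus strand), which encodes the GA-binding recruiter, had a peak in the upper part of the IDR list. Pooled signal was 686 (rank 3446), with the summit at -146 bp. Its replicate signals were 181, 143 and 375, at percentiles 82.7, 84.6 and 92.4, a mean of 86.6 ± 5.15 (SD, n = 3). Replicate 3 was highest, with its summit at -146 bp, while the summits of replicates 1 and 2 lay at -192 and -194 bp. The start of lncRNA:CR44809, on the other strand, was 379 bp from the pooled summit, so this peak too has a further gene within 500 bp. The GA repeat that CLAMP and the GAGA factor bind was searched as GAGAGA on both strands. It occurred in the promoter windows of mle, Clamp and Sxl, 3 of 9 genes, against 17.1% of all protein-coding genes, and within 50 bp of none of the 8 leading summits, against 2.95% of IDR summits.

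**Figure D1:**
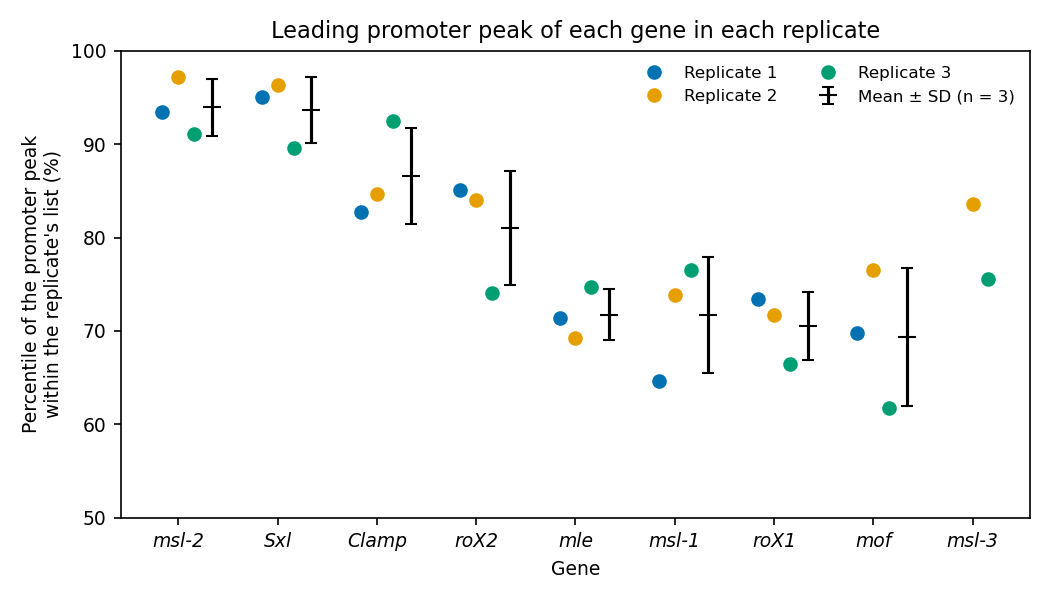
Percentile of the leading promoter peak within each replicate's list of 30000 peaks (vertical axis, starting at 50%) for each gene, with points for the 3 replicates and a black bar for the mean ± SD. For msl-3, which has no pooled peak, the highest replicate peak within 500 bp of the TSS is plotted. The points of msl-2, Sxl and Clamp lie between 82.7 and 97.2, and those of mle, msl-1, roX1 and mof between 61.8 and 76.6.

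**Figure D2:**
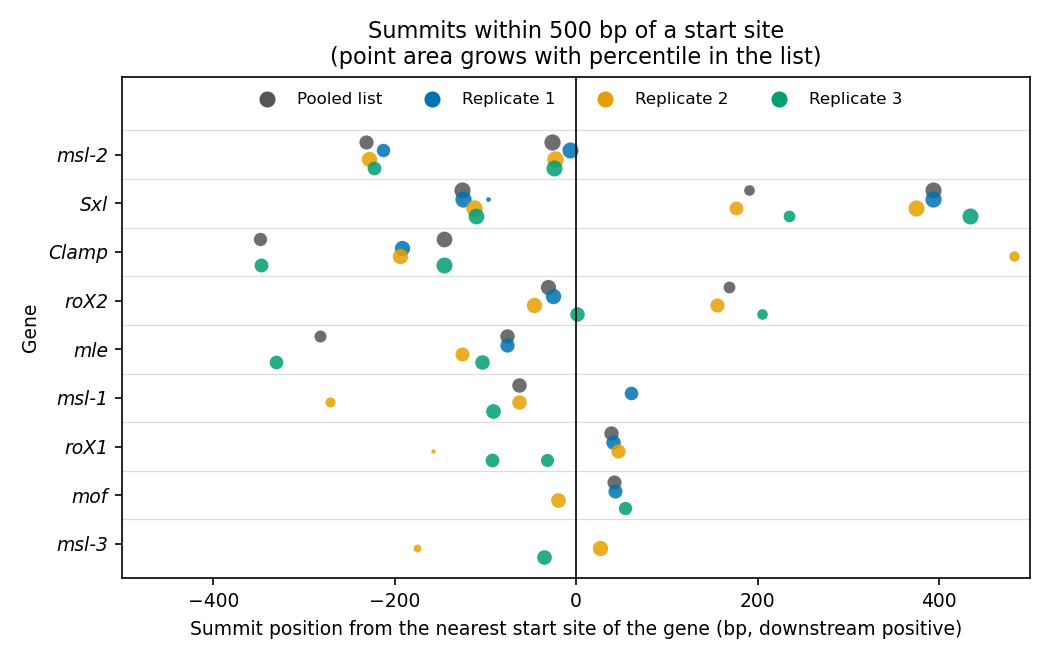
Position of every summit within 500 bp of a TSS (horizontal axis, bp from the nearest start site of the gene, downstream positive) in the pooled list and the 3 replicate lists, with the area of a point growing with its percentile. The leading pooled summits run from -146 bp at Clamp to 42 bp at mof, and msl-3 has points from replicates 2 and 3 only.

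Sxl (X, 7074550 to 7098053, minus strand) had the most peaks of the 9 genes, with 4 IDR summits over about 3 kb at its upstream end. It is the switch gene of sex determination. Its maintenance promoter is used in both sexes, and an establishment promoter farther downstream is used early in female embryos. The annotation gives 4 start sites, of which the most upstream, at 7098053, serves 18 of 25 transcripts. The leading summit lay 126 bp upstream of that start, with a pooled signal of 1050 (rank 1763). Signals of 412, 331 and 299 in the replicates stood at percentiles 95, 96.3 and 89.6, a mean of 93.7 ± 3.56 (SD, n = 3). The bases around it are shown on the gene's strand, with motif 1, which here reads in reverse, in capitals.
Sxl, chrX:7098129-7098229, minus strand: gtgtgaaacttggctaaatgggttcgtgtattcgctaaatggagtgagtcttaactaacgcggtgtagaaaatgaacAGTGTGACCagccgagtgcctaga

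Downstream of this, 3 further IDR summits followed in introns. The next lay 1506 bp downstream, 393 bp inside the start at 7097066, with a pooled signal of 1007 (rank 1894). Its percentiles of 94.8, 93.5 and 91.9 gave a mean of 93.4 ± 1.43 (SD, n = 3), so it stood close to the leading peak, below it in replicates 1 and 2 and above it in replicate 3. Then came a summit 957 bp farther on, outside the promoter windows, with a signal of 563 (rank 4449) and percentiles of 86.3, 74.7 and 88.3 (mean 83.1 ± 7.36, SD, n = 3). The last, 653 bp beyond it, had a signal of 395 (rank 6503) and percentiles of 51.4, 63 and 88 (mean 67.5 ± 18.7, SD, n = 3). This last peak rested mostly on replicate 3, the only replicate in which it was among the 9194 strongest.

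The start site farthest downstream in Sxl, at 7092883, lies where the establishment promoter is known to be, and it had no IDR peak. Its nearest IDR summit was 2180 bp away and its nearest pooled summit 884 bp away. A single weak peak, in replicate 1, lay within 500 bp, at 97 bp and rank 29433 of 30000. Beyond this start the pooled list had 8 further summits along the gene, the strongest with a signal of 170.5 (rank 12507), and none passed the IDR filter.

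Sxl was the only gene of the 9 with an IDR summit in its body, away from its own start sites (11.1% of the 9, against 8.55% of all genes). It is also the longest of them, at 23504 bp. Of the 869 protein-coding genes at least as long, 54.2% had an IDR summit in the body and 38.1% had at least 2, so the presence of such peaks does not set Sxl apart from other long genes. This comparison was added after the data were seen.

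**Figure D3:**
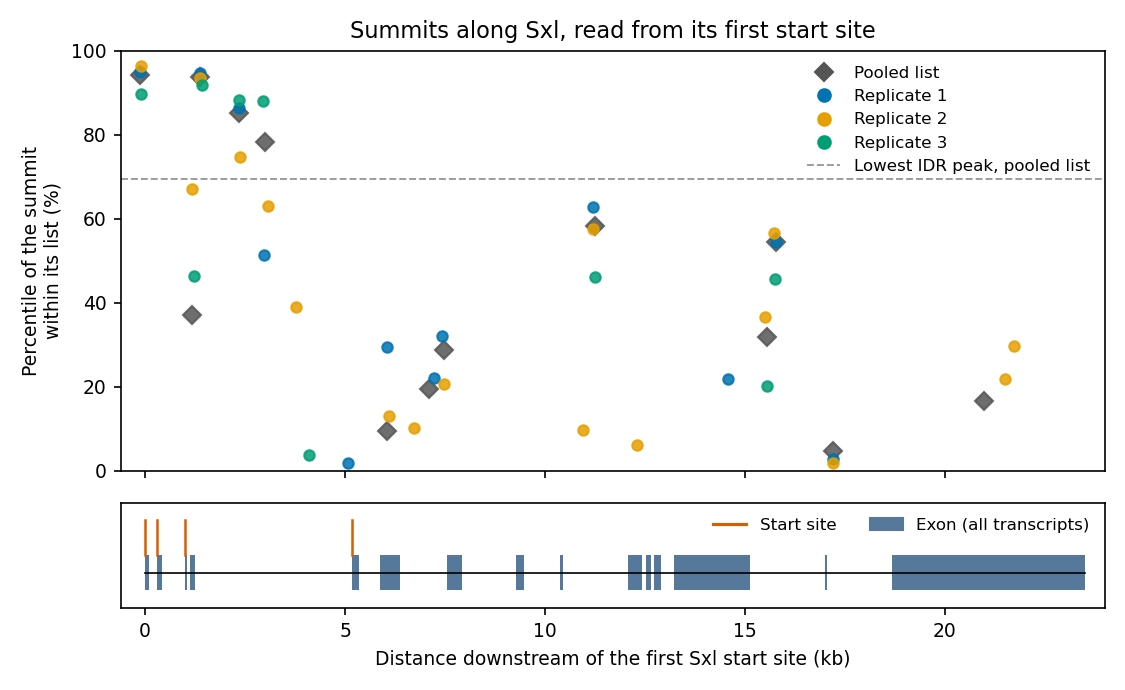
Summits along Sxl by distance downstream of its first start site (horizontal axis, kb) and percentile within their own list (vertical axis), for the pooled list (diamonds) and the 3 replicates (circles). The dashed line marks the weakest IDR peak within the pooled list, and the lower panel gives exons and start sites. The 4 pooled summits above the line all lie upstream of the last start site.

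By mean percentile the order of the leading promoter peaks was msl-2, Sxl, Clamp, roX2, mle, msl-1, roX1 and mof. In each of the 7 neighbouring pairs the replicate values overlapped, and no pair kept the same sign in all 3 replicates. The exact two-sided sign-flip permutation test over 3 replicates cannot give a p below 0.25. Its values of 0.5 to 1, all 1 after Benjamini-Hochberg adjustment over the 7 pairs, therefore do not show that neighbours were alike. The difference was 9.27 ± 8.62 percentile points (SD, n = 3) between roX2 and mle, the widest of the 7 and the pair besides Sxl and Clamp whose mean difference kept its sign with any replicate left out, and 0.28 ± 1.63 between msl-2 and Sxl. The other 5 pairs turned when a replicate was left out. Without replicate 1, msl-1 stood at 75.2 against 72 for mle, and mof at 69.18 against 69.09 for roX1. Without replicate 2, Sxl stood at 92.34 against 92.31 for msl-2. Without replicate 3, Sxl stood at 95.7 against 95.4 for msl-2, roX2 at 84.5 against 83.7 for Clamp, roX1 at 72.5 against 69.3 for msl-1, and mof at 73.2 against 72.5 for roX1. The order of msl-2 and Sxl also turned when the highest replicate peak anywhere within 500 bp of a TSS was used, since Sxl then took 94.4 ± 2.28 against 93.9 ± 3.07 (SD, n = 3). Farther apart in the order the replicate values did separate. The values of msl-2, Sxl and Clamp, 82.7 to 97.2, lay above those of mle, msl-1, roX1 and mof, 61.8 to 76.6, and roX2, 74 to 85.1, overlapped both. These sets were read from the order itself, so no test is given.

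Compared with other genes that have a promoter peak, most of these peaks were weak. The median pooled signal of the 8 was 401 (median rank 6551), against 745 (median rank 3075) for the 5941 protein-coding genes with an IDR promoter peak, whose quartiles were 480 and 1148. Of those genes, 72.6% had a lower signal than msl-2, 70.2% than Sxl and 44.9% than Clamp. For roX2 the share was 24.4%, for msl-1 7.49%, for mle 5.87%, for roX1 4.02% and for mof 1.26%. The summits of the 8 lay close to the start sites, all within 150 bp and at a median of -47 bp, while over the 5941 genes 62.9% lay within 150 bp and the median was -109 bp. A share of 89.8% of the 5941 summits was upstream of the TSS, as were 6 of the 8.

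**Figure D4:**
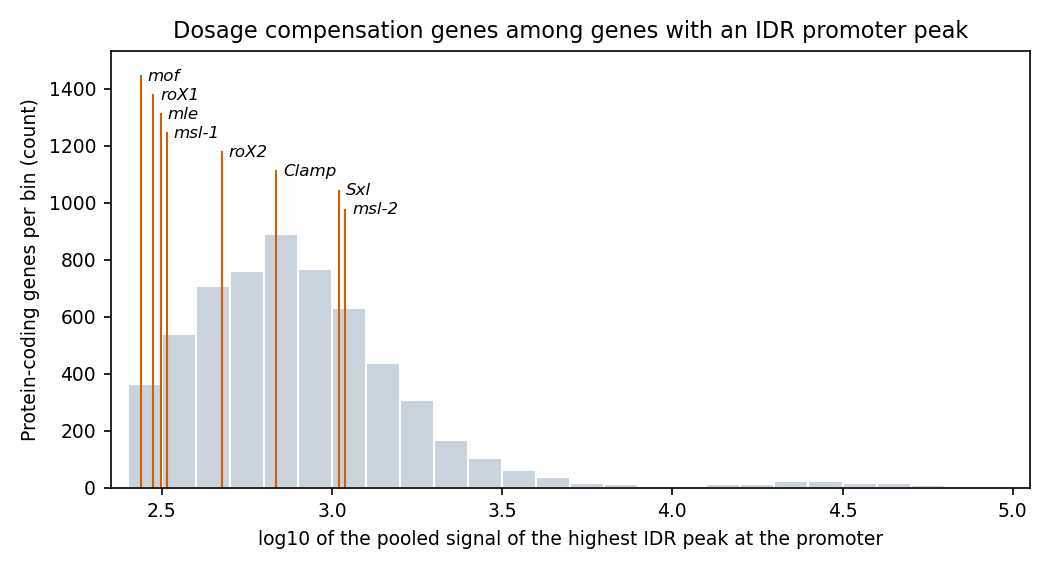
Distribution of the pooled signal of the highest IDR promoter peak (horizontal axis, log10) over 5941 protein-coding genes (grey bars, count of genes per bin), with a vertical line for each of the 8 genes with such a peak. The height of a line carries no value. The lines of mof, roX1, mle and msl-1 stand at the low end, with 1.26% to 7.49% of the genes below them, and those of Sxl and msl-2 right of the tallest bar.

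For each of the 8 genes, the protein-coding gene with the most alike percentiles was found, by the Euclidean distance over the 3 replicates, among about 5500 genes with a peak in each. The closest match of all was between Sxl and Ras64B, a small GTPase gene, at 0.288 percentile points, followed by roX1 and arm, the fly beta-catenin gene, at 0.44. The other matches were CG6701 for roX2 (0.812), Opbp for msl-2 (0.883), BRWD3 for Clamp (1.04), Pdk for msl-1 (1.05), CG4553 for mof (1.15) and CG1695 for mle (2.19). With 3 values a gene, a near match is readily found and is given as a description only.

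Other genes of the pathway, in 5 lists of 49 genes in all, also had promoter peaks at most members. An IDR promoter peak was present at 40 of the 49 (81.6%, Wilson interval 68.6% to 90%) and a peak in the higher-signal 50% at 33 (67.3%), against 42.6% and 29% of all protein-coding genes. These lists too were chosen with earlier results of these data known, so the interval is no test against those shares. At 23 of the 40 another gene's TSS also lay within 500 bp of the strongest pooled summit, so a peak there cannot be assigned to the listed gene alone. The first list was the non-specific lethal (NSL) complex, which shares MOF with the MSL complex and acts at housekeeping promoters in both sexes. It had peaks at 5 of 6 genes, led by Rcd5 (pooled signal 2261), dgt1 (1210) and nsl1 (887). Rcd1 had a pooled peak of 222, below the IDR filter. Of chromatin, nuclear pore and RNA-binding factors reported to act with the MSL complex, 13 of 14 had a peak, led by the topoisomerase gene Top2 (1893), the nuclear pore gene Mgtor (1356) and the remodelling ATPase gene Iswi (1308). The Mgtor summit lay 263 bp downstream of the TSS, and only 2 of the 3 replicate lists had a promoter summit. The replicate peaks whose intervals hold it stood at percentiles 99.77, 99.77 and 99.75, higher in their lists than its pooled rank of 1118. MRG15 was at 189 in the pooled list and did not pass.

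The list with the lowest share of genes with a peak held the X-linked signal elements that set Sxl on or off in the early embryo, with the activators and repressors that act with them. No test was made between the lists. Of its 11 genes, 5 had an IDR promoter peak (45.5%), a share near the 42.6% of all protein-coding genes. The highest signals were at gro, the gene of a corepressor that acts against Sxl activation (1677), the bHLH factor gene da (884) and the zinc finger gene her (854). The signal element sisA and the JAK/STAT ligand gene upd1 had no promoter summit in any list. In a subset picked after the values were seen, the X-linked signal elements sisA, sc, upd1 and run, none had an IDR promoter peak. Of these, sc had a pooled peak of 78.7, and run had peaks in 2 replicate lists only. This was not particular to the X-linked elements. The autosomal genes dpn (pooled signal 105) and emc (157) of the same list also had no IDR promoter peak, while the X-linked gene hop (698) had one.

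All 12 genes of Sxl splicing regulation and the RNA adenosine methylation machinery had an IDR promoter peak, against 42.6% of all protein-coding genes. In the higher-signal 50% the count was 11 of the 12, against 29%. At all of them but Hakai and Flacc another gene's TSS also lay within 500 bp of the summit. Those peaks cannot be assigned to the listed gene alone. The strongest was at fl(2)d, a methyltransferase complex subunit needed for Sxl splicing. Its pooled signal of 48246 ranked 9, and CG13339 also starts within 500 bp of that summit. The splicing factor gene U2af50 (2545) and vir (1324), another subunit of that complex, came next. Downstream of Sxl in sex determination, 6 of 7 genes had a peak, against 42.6% of all protein-coding genes. Among them were the sex-specific transcription factor gene dsx (969) and the splicing cofactor gene tra2 (915). The dsx summit lay at -446 bp, near the edge of the window, and 2 of the 3 replicate lists had a promoter summit there. Its replicate percentiles were 72.2, 91.3 and 96, while tra2 had a promoter summit in all 3 lists. The direct Sxl target tra had a pooled signal of 734, and fru, at 255, did not pass the filter. The gene her stands in both the activation and the downstream lists and was counted once among the 49.

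**Figure D5:**
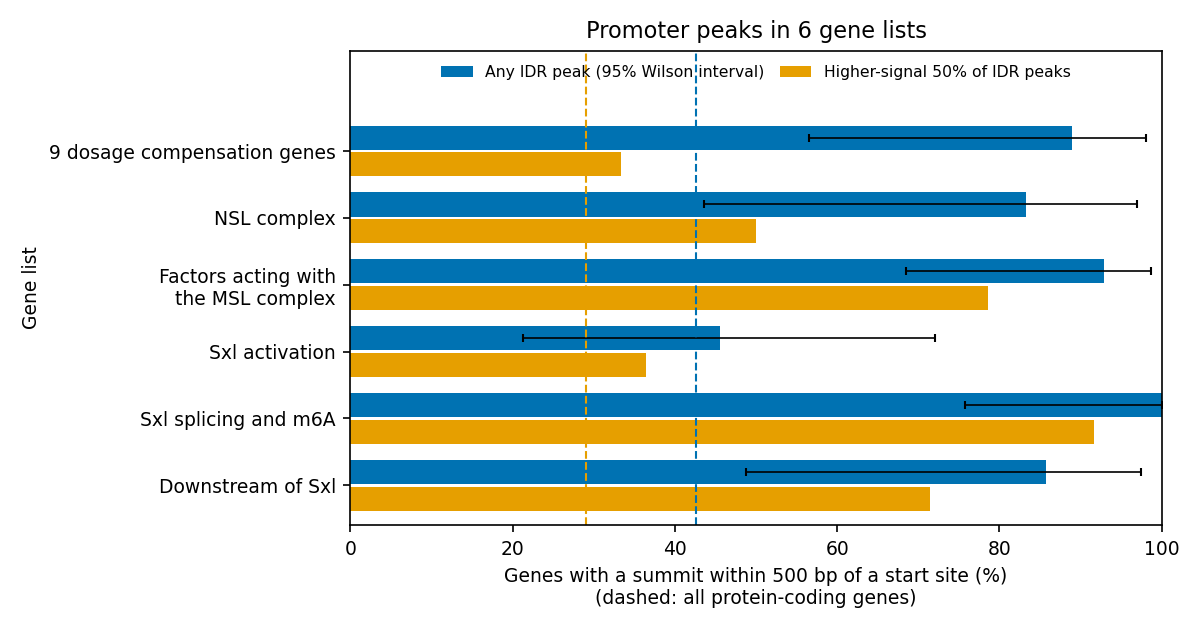
Share of genes in each list (horizontal axis, %) with a promoter peak in the IDR list (blue, with 95% Wilson interval) and with a summit in the higher-signal 50% of IDR peaks (orange). Dashed lines give the same shares over all protein-coding genes, 42.6% and 29%. The lists were chosen with earlier results known, so the intervals cover counting error only and are no test against these lines. The 9 dosage compensation genes reach 88.9% in blue and 33.3% in orange, the latter near its dashed line.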

How the data were processed

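The files were 5 peak lists in narrowPeak format. Per the labels, embryos aged 0 to 14 hours were used in 3 biological replicates, with chromatin of 200 to 800 bp. Per the text files deposited with the lists, the authors made each replicate list from alignments to dm6 and 1 control file, and the IDR list from the replicate and pooled lists. Neither the aligner nor the peak caller is named there, and the IDR threshold is not stated. The signal was deposited by the authors on an unstated scale, so it was compared only within a list, as rank or percentile. The summit offset was also deposited by the authors.

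Summits were set against the RefSeq annotation of dm6 without the mitochondrial genome, with 4 older gene names matched by synonym. For an IDR peak, the value in a replicate was that of the highest peak there whose interval holds the summit. Motifs (13) were read from the RefSeq sequence of dm6. No sequence from 2R is shown, and UTR bases only within sites of under 30 bases. The step that matches summits to the start sites of protein-coding genes recovered 200 of 200 promoters planted in simulated data. It found 0 where none was planted. This checks only that the matching ran and gives no measure of how reliably peaks were detected. The motif search was not part of it. Wilson intervals cover counting error only.

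The genes, lists and motifs were chosen with earlier results of these data known. Genes named were the 9, any with a start within 500 bp of their promoter summits, the closest match of each, CG14710, and, of each list, the 3 with the highest pooled signal and, if 5 or fewer, those without a summit in any list. A single listed gene is left out of the names given. Others were named after their values were seen: BBS1, and the remaining listed genes without an IDR peak or with a point of their own, such as tra. Alternatives were windows of 250 and 1000 bp, the pooled list, IDR peaks above the median signal, interval overlap, other replicate values, other motif windows and each replicate left out. Leaving out summits within 250 bp of a stronger one and the comparison with genes as long as Sxl were added after seeing the data. Python 3.11.15 was used, with matplotlib 3.10.9, numpy 2.4.6 and scipy 1.17.1.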

Additional observations from a re-analysis of the deposited data

How the results depend on the processing

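The count of 8 genes with a promoter peak was also 8 with windows of 250 and 1000 bp, in the pooled list, by interval overlap and without summits near a stronger one, while the background of 42.6% became 37.3%, 46.1%, 55.1%, 44.2% and 42.4%. It was 3 for IDR peaks above the median signal (background 29%) and 5 to 6 with a replicate left out (background 36% to 38.4%). The count of genes with a summit in the body was 2 in the pooled list (background 19.8%) and 1 under the other alternatives run. The median over genes of the mean percentile was 76.4, stayed between 76.3 and 78.4 with a replicate left out, and was 25.4 when percentiles were taken among the 9194 strongest peaks with 0 for a peak outside them, which by construction lowers every value. The count of pathway genes ranged from 33 (IDR peaks above the median signal, background 29%, and the window of 250 bp, background 37.3%) to 46 (pooled list, background 55.1%). At least 1 of the 13 motifs lay within 50 bp of 7 of 8 leading summits, against 63.1% of IDR summits, and within 100 bp of 7, against 85.8%. With a promoter window the count was 8 of all 9 genes, or 7 of the 8 with a peak, against 96.4% of protein-coding genes. Of 33 comparisons with these main results, 28 stayed within the spread between replicates or, for counts, close to the main count, and 5 moved. This sorting used the value alone and not its background, and it took 33 pathway genes as close to 40. Against its background the motif result changed side. The share of the genes was above that of IDR summits within 50 bp and below that of protein-coding genes in the promoter window. No paired analysis was possible because the study has 1 group. With depth unknown, no limit of detection can be given for msl-3 or the downstream Sxl start.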

Other observations

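Summits near these genes often came in pairs about 200 bp apart. Over all 5 lists there were 26 pairs of summits within 250 bp of each other at 8 of the 9 genes, the exception being mof. The lists overlap, since the IDR peaks are part of the pooled list, and the same site was counted in each list that held it. The share of all genes with such a pair was not computed, so this count does not set the 9 genes apart. Their distances ran from 199 to 247 bp with a median of 204.5 bp, and 23 lay between 190 and 220 bp. The pairs included the leading msl-2 summit with its weaker neighbour, 199 to 206 bp away in every list, and pooled pairs at mle (206 bp), Clamp (202 bp) and roX2 (200 bp). The same held over the genome: the smallest distance between summits was 199 bp in each list, and of 5478 neighbouring pooled summits within 250 bp, 84.4% lay between 190 and 220 bp (88.7% of 782 in the IDR list). The cause was not tested.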
